A study of Arabidopsis thaliana with 6 samples.

Results

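Transcripts of 35 Arabidopsis thaliana loci of the Calvin cycle and of photorespiration, most of them encoding enzymes, were examined in leaves of transgenic and wild-type plants. The loci were chosen by name from the table of 21981 genes: 21 for carbon fixation, 12 for photorespiration and 2 for carbonic anhydrases. Of these, 33 had values, and the Rubisco small subunit gene RBCS3B (AT5G38410) and the phosphoglycerate kinase gene PGK1 (AT3G12780) were not analysed here. Genes averaging 1 FPKM or more across the 6 samples were tested, which kept 17093 genes and 32 of the 33 loci. The locus below this level was PGLP1, the phosphoglycolate phosphatase of the chloroplast.

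The samples were leaves of 4-week-old plants of the Col-0 accession, with 1 sample from each of 3 transgenic lines and 3 samples of wild type. The labels name neither the transgene nor its promoter. A drought treatment is mentioned in the same words for the lines and for wild type, so the labels show no difference in watering. Messenger RNA was selected by its poly(A) tail and sequenced on an Illumina instrument. The values are FPKM, fragment counts scaled for transcript length and library size, deposited as 1 column per sample. The transgenic samples came from different lines, while no label says that the wild-type samples came from separate plants, so the spread among the wild-type samples behind the p-values may be technical.

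In the Calvin cycle, Rubisco joins CO2 to ribulose bisphosphate in the chloroplast stroma, the product is reduced to triose phosphate with ATP and NADPH, and most of the triose phosphate is used to regenerate the acceptor. When Rubisco takes oxygen in place of CO2 it makes phosphoglycolate, which photorespiration recycles through the chloroplast, the peroxisome and the mitochondrion, with release of CO2 and ammonia. Both pathways are among the most strongly expressed in green leaf cells. The small protein CP12 binds glyceraldehyde phosphate dehydrogenase and phosphoribulokinase in the dark and holds them inactive.

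Most of the genes had higher FPKM in the transgenic lines. Of the 32 tested genes, 30 rose, 0 fell and 2 were not called, at a limma adjusted p under 0.05 on log2(FPKM + 1), and 31 had an unadjusted p under 0.05. Over all tested genes 40.7% were called, 25.0% higher and 15.7% lower. Among the 1655 tested genes averaging 100 FPKM or more, 74.2% were called, 62.7% higher and 11.5% lower, and PGK2, RPI3 and GLDP2 were the tested loci under that level. The count over the pathway, and the counts of its parts below, therefore have to be read against a table in which most strongly expressed genes were called higher. The median log2 fold change, transgenic over wild type, was 0.58 for the 32 genes, 0.32 for genes at 100 FPKM or more and 0.03 for all tested genes. In 31 of the 32 genes the 3 lines lay above the 3 wild-type samples, and CP12-2 was the exception. Over all tested genes this held for 30.2%, and 22.0% had all lines below. The shares were not computed for genes at 100 FPKM or more, where most of the 32 genes lie.

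The scaling of the values bears on these counts. The FPKM of all genes summed to 1278450, 1261800 and 1272270 in lines 1 to 3, against 976844, 970376 and 982620 in wild-type replicates 1 to 3. This is a ratio of 1.30, or 0.38 on the log2 scale, and 25 of the 32 genes had a log2 fold change above it. When each sample was rescaled to an equal sum (TPM), which moved the median of all tested genes to -0.31, 21 of the 32 genes were called higher and 3 lower, against 11.2% and 48.9% of all tested genes. After quantile normalization, 18 were called higher and 2 lower, against 19.1% and 20.2%. Cyclic loess gave 16 higher and 2 lower, against 19.2% and 19.9%. Quantile normalization and loess bring the top of the distributions together by construction, which is where these genes lie. With median-of-ratios factors the counts were 30 and 0, against 22.9% and 17.6%.

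Under all 5 scalings 15 of the 32 genes, or 46.9%, were called higher and 0 were called lower. The same held for 10.9% and 13.4% of all tested genes, and for 31.7% and 11.5% of tested genes at 100 FPKM or more. In carbon fixation 7 of 19 genes (36.8%) were called higher in all 5, namely RCA, GAPA2, FBA1, FBA2, CFBP1, SBPASE and PRK. That share was close to the 31.7% of tested genes at 100 FPKM or more. In photorespiration 6 of 11 (54.5%) were, namely GOX1, GGT1, HPR1, GLDP1, SHM1 and GLYK. The carbonic anhydrase genes CA1 and CA2 made up the rest.

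**Figure D1:**
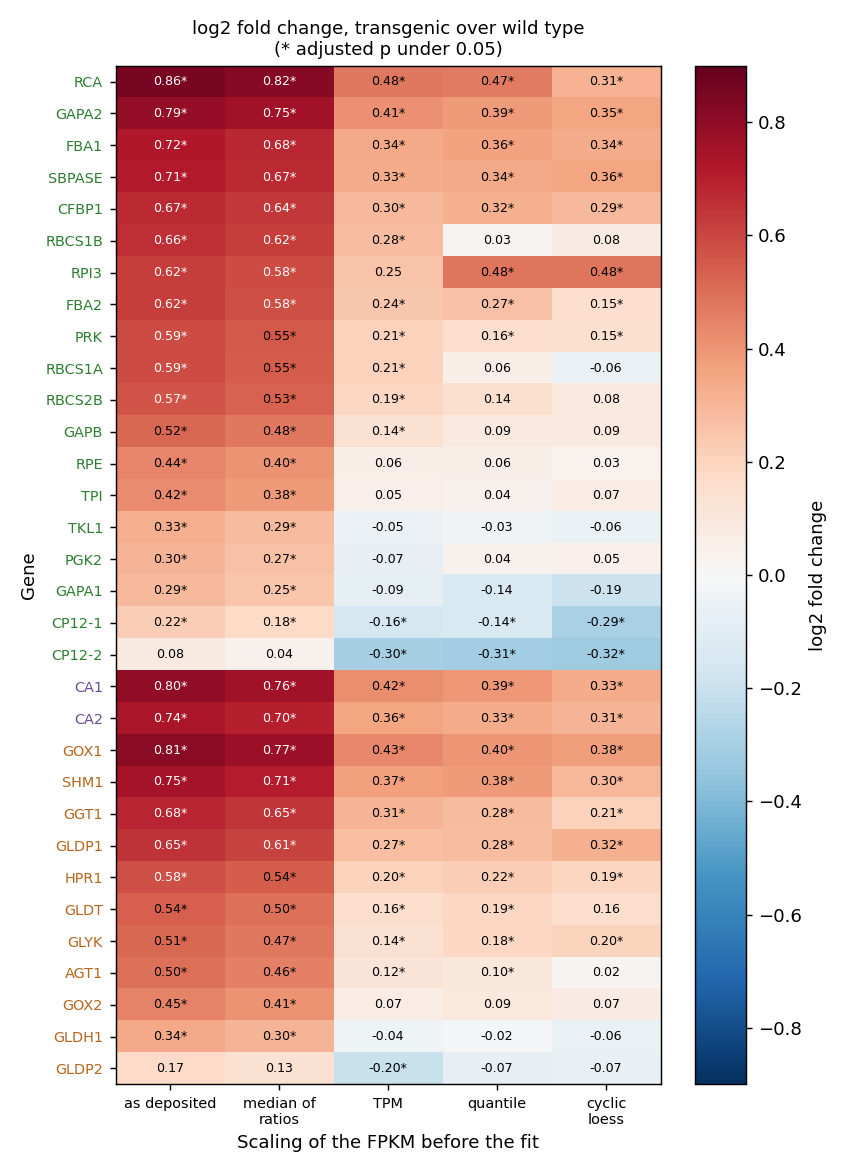
Log2 fold change, transgenic over wild type, of the 32 tested genes (rows) under 5 scalings of the FPKM (columns), with an asterisk where the limma adjusted p was under 0.05. RCA, at 0.86 as deposited and 0.31 after loess, kept its call in every column, while CP12-1 is positive in the columns for deposited values (0.22) and median of ratios and negative in the other 3.

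The levels spanned a wide range, from RBCS1A at the top to PGLP1 at the bottom. Summed over the 33 loci, the FPKM came to 46616, 46231 and 47252 in lines 1 to 3, against 31521, 30851 and 30661 in wild-type replicates 1 to 3. The lines did not overlap wild type, and their mean was 1.51 times higher. As a share of all FPKM in a sample, which does not change when all its values are multiplied by 1 factor, the 33 loci held 3.67% ± 0.0351 in the lines and 3.18% ± 0.0534 in wild type (SD, n = 3 each). Carbon fixation held 2.91% ± 0.0332 of all FPKM in the lines and 2.54% ± 0.0382 in wild type. For photorespiration the shares were 0.586% ± 0.00196 in the lines and 0.503% ± 0.0158 in wild type. In bulk leaf, more RNA per cell and more cells of a type cannot be told apart.

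**Figure D2:**
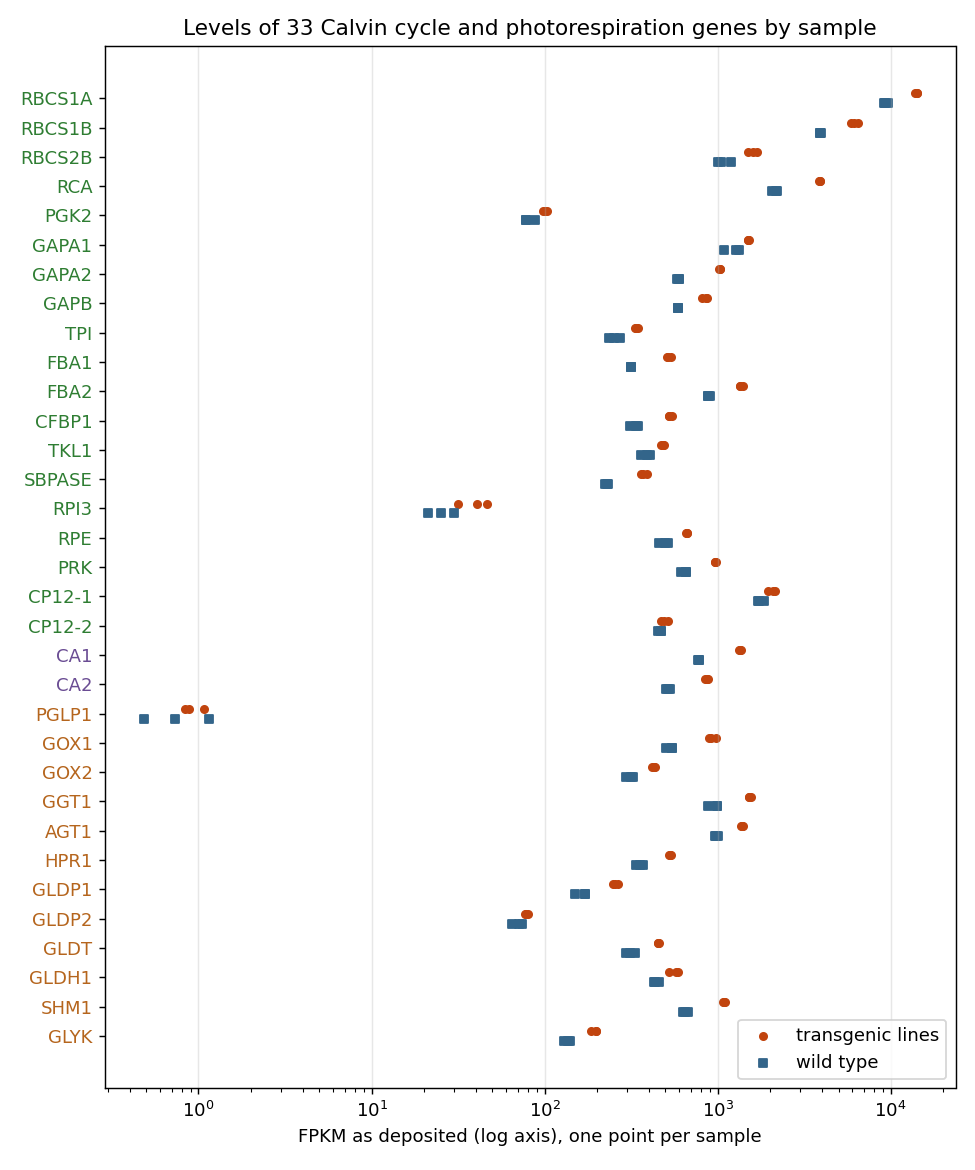
FPKM as deposited (log axis) of the 33 loci with values, 1 point per sample, with transgenic lines as circles above wild-type squares and gene names coloured green for carbon fixation, purple for carbonic anhydrases and brown for photorespiration. RBCS1A stands at the top with 13774 to 14179 FPKM in the lines and 9117 to 9665 FPKM in wild type, and PGLP1, at 0.831 to 1.07 FPKM in the lines and 0.483 to 1.16 FPKM in wild type, lies far below all other genes.

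The Rubisco group, 3 small subunit genes and the gene of Rubisco activase, rose as a whole on the deposited values, with 4 of 4 tested genes called higher and a median log2 fold change of 0.62. RCA (AT2G39730) encodes Rubisco activase, which frees the active site of Rubisco from bound inhibitory sugar phosphates. It had 3915, 3840 and 3934 FPKM in lines 1 to 3, against 2218, 2182 and 2063 FPKM in wild-type replicates 1 to 3. No line came near the wild-type range, and the log2 fold change (0.86, SE 0.037, limma adjusted p = 2.3e-07) was the largest of the 32 tested genes.

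The small subunit genes encode the nuclear part of the Rubisco enzyme, and RBCS1A and RBCS1B were the most abundant transcripts of the 33 loci. RBCS1A (AT1G67090) had 14179, 13774 and 14163 FPKM in the lines, against 9665, 9117 and 9279 FPKM in wild type. RBCS1B (AT5G38430) stood at 5919, 6131 and 6500 FPKM in the lines, against 3890, 3905 and 3952 FPKM in wild type. RBCS2B (AT5G38420) had 1606, 1696 and 1495 FPKM in the lines, against 999, 1052 and 1191 FPKM in wild type. In each of these genes all lines lay above all wild-type samples. On the deposited values RBCS1A was higher by 0.59 in log2 units (SE 0.033, limma adjusted p = 1.1e-06), but it was not called after quantile normalization (0.06) and was at -0.06, also not called, after loess. RBCS1B was higher by 0.66 (SE 0.039, limma adjusted p = 1.5e-06) and RBCS2B by 0.57 (SE 0.069, limma adjusted p = 0.00016), and both were called after TPM rescaling but neither after quantile normalization or loess. Summed, the 3 genes held 1.72% ± 0.0224 of all FPKM in the lines and 1.47% ± 0.0198 in wild type (SD, n = 3 each). Within the sum for carbon fixation they made up 58.9% in the lines and 57.9% in wild type.

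The promoters of RBCS2B, of CFBP1 from the regeneration phase and of RCA are shown because these called genes hold motifs known from light-regulated plant genes, the G-box CACGTG and the I-box GATAAG. Each is the 250 bases before the annotated start in the TAIR10.1 genome of RefSeq, read on the gene's strand, and capitals mark a motif on either strand. RBCS2B lies on the minus strand with this window at chr5:15382072-15382321, CFBP1 on the plus strand at chr3:20016587-20016836, and RCA on the minus strand at chr2:16573693-16573942.
RBCS2B: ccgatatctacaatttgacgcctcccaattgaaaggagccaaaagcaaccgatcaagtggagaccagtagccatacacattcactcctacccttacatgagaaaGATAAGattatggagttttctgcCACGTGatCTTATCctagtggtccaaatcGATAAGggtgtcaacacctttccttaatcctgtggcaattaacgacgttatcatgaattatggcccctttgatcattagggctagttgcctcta
CFBP1: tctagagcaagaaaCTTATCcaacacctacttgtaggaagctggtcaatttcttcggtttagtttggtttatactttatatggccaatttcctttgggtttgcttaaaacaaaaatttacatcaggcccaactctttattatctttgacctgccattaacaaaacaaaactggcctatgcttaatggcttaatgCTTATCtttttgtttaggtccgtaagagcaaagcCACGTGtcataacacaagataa
RCA: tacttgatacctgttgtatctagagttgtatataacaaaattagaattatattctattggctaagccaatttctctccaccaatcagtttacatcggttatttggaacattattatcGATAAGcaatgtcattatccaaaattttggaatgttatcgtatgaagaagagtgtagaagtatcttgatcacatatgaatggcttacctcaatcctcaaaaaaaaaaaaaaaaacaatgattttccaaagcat

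RBCS2B held 1 G-box and 3 I-boxes in this window, CFBP1 held 1 G-box and 2 I-boxes, and RCA held 1 I-box. Over all 35 loci, the G-box was found in 5 windows (14.3%), against 6.49% of 27443 promoters of the same length, and the I-box in 5 (14.3%), against 12.3%. The other genes with a G-box were PRK, GGT1 and GLDP1, and those with an I-box were CP12-2 and GLDP2. All 5 genes with a G-box were called higher on the deposited values, as were 30 of the 32 tested genes, and the I-box was also found in CP12-2 and GLDP2, which were not called. A match describes the letters in the window and is no measure of binding.

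In the reduction phase, phosphoglycerate kinase and the chloroplast glyceraldehyde phosphate dehydrogenase turn phosphoglycerate into triose phosphate. All 4 tested genes were called higher on the deposited values, with a median log2 fold change of 0.41, but of the dehydrogenase A subunit genes GAPA2 kept its call under every scaling and GAPA1 did not. GAPA2 (AT1G12900) had 1031, 1038 and 1017 FPKM in the lines, against 601, 597 and 582 FPKM in wild type. Its lines lay well above wild type, with a log2 fold change at 0.79 (SE 0.034, limma adjusted p = 2.5e-07). GAPA1 (AT3G26650) had 1492, 1517 and 1502 FPKM in the lines, against 1322, 1280 and 1095 FPKM in wild type. Its lines also lay above wild type, but its log2 fold change (0.29, SE 0.064, limma adjusted p = 0.0057) turned to -0.09 after TPM rescaling, -0.14 after quantile normalization and -0.19 after loess, none of them called.

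The B subunit gene GAPB (AT1G42970) averaged 845 ± 25.3 FPKM in the lines and 589.6 ± 2.92 FPKM in wild type (SD, n = 3 each), a difference of 0.52 in log2 units (SE 0.037, limma adjusted p = 5.3e-06) that was not called after quantile normalization or loess. PGK2 (AT1G56190), the tested gene of phosphoglycerate kinase, had 101, 98.5 and 103 FPKM in the lines, against 78.4, 88.0 and 78.1 FPKM in wild type. The groups did not overlap, and the log2 fold change of PGK2 was 0.30 (SE 0.061, limma adjusted p = 0.0035) as deposited. It was -0.07 after TPM rescaling, 0.04 after quantile normalization and 0.05 after loess, none of them called.

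The regeneration phase, which rebuilds the CO2 acceptor through aldolase, phosphatase, transketolase, isomerase and kinase steps, had all 9 of its tested genes called higher on the deposited values, with a median log2 fold change of 0.62. FBA1 (AT2G21330), a plastid aldolase, had 516, 510.1 and 539.9 FPKM in the lines, against 317, 317 and 315 FPKM in wild type. SBPASE (AT3G55800), the sedoheptulose bisphosphatase, had 391, 363 and 370.0 FPKM in the lines, against 232, 229 and 224 FPKM in wild type. These genes were at log2 fold changes of 0.72 (SE 0.039, limma adjusted p = 9.4e-07) and 0.71 (SE 0.044, limma adjusted p = 2.1e-06), and stayed called under every scaling. The transketolase gene TKL1 (AT3G60750) had 485, 473 and 492 FPKM in the lines, against 393, 406 and 359 FPKM in wild type. TKL1 did not overlap either, yet its log2 fold change (0.33, SE 0.051, limma adjusted p = 0.00078) was -0.05 after TPM rescaling, -0.03 after quantile normalization and -0.06 after loess, none of them called.

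Of the other regeneration genes, CFBP1 (AT3G54050), the chloroplast fructose bisphosphatase, averaged 528 ± 11.6 FPKM in the lines and 331 ± 16.6 FPKM in wild type (SD, n = 3 each). FBA2 (AT4G38970), the more abundant plastid aldolase, averaged 1365 ± 30.4 FPKM in the lines and 888 ± 10.9 FPKM in wild type, and PRK (AT1G32060), the phosphoribulokinase that makes ribulose bisphosphate, 972 ± 7.08 FPKM in the lines and 646 ± 24.2 FPKM in wild type. Their log2 fold changes of 0.67, 0.62 and 0.59 stayed called under every scaling. The epimerase gene RPE (AT5G61410), at 664 ± 6.35 FPKM in the lines and 489 ± 28.5 FPKM in wild type, and the triose phosphate isomerase gene TPI (AT2G21170), at 339 ± 5.84 FPKM in the lines and 253 ± 18.7 FPKM in wild type, were called higher as deposited but not after TPM rescaling, quantile normalization or loess. RPI3 (AT3G04790), a ribose phosphate isomerase, varied most among samples, with 41.0, 31.7 and 46.7 FPKM in the lines, against 21.2, 25.1 and 29.9 FPKM in wild type. Its log2 fold change was 0.62 (SE 0.15, limma adjusted p = 0.010) and was not called when no filter on low values was used (limma adjusted p = 0.061) or after TPM rescaling (0.25).

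**Figure D3:**
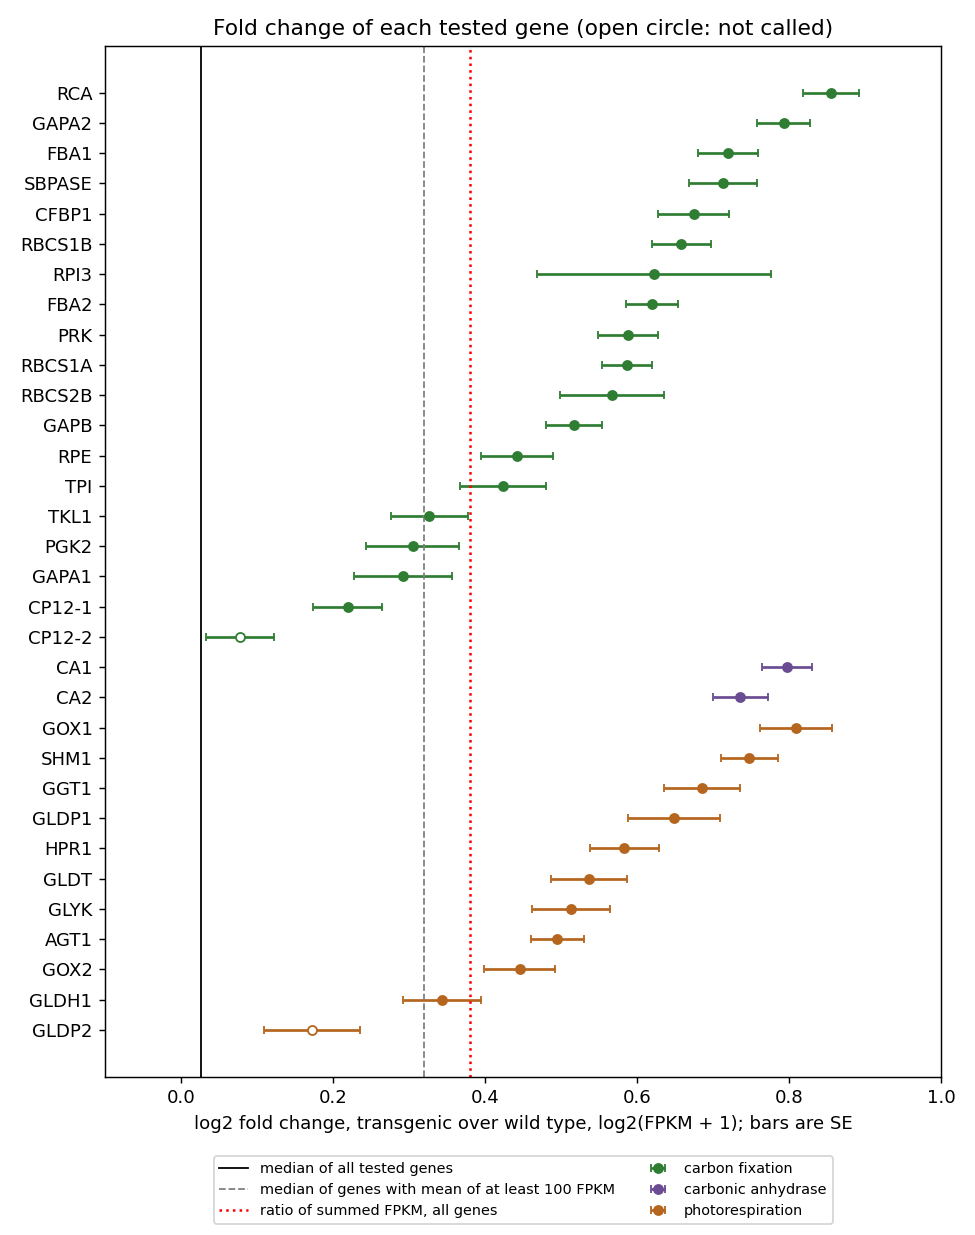
Log2 fold change, transgenic over wild type, of the 32 tested genes on log2(FPKM + 1), with limma's SE as bars, open circles for genes not called, and vertical lines for the median of all tested genes (0.03), the median of genes at 100 FPKM or more (0.32) and the log2 ratio of summed FPKM (0.38). In carbon fixation the points run from CP12-2 at 0.08 to RCA at 0.86, and in photorespiration from GLDP2 at 0.17 to GOX1 at 0.81.

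The CP12 genes had the smallest differences in carbon fixation. CP12-1 (AT2G47400) had 2093, 1964 and 2142 FPKM in the lines, against 1723, 1743 and 1858 FPKM in wild type. Its lines lay above wild type, by 0.22 in log2 units (SE 0.045, limma adjusted p = 0.0039) as deposited, but CP12-1 was called lower after TPM rescaling (-0.16), quantile normalization (-0.14) and loess (-0.29), and was not called without the mean-variance trend (limma adjusted p = 0.053). CP12-2 (AT3G62410) had 516, 469 and 491 FPKM in the lines, against 469.6, 455 and 472 FPKM in wild type, and the groups overlapped. Its log2 fold change (0.08, SE 0.045, limma adjusted p = 0.20) was not called as deposited, and it was called lower at -0.30, -0.31 and -0.32 under the same 3 scalings.

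Set against the enzymes that CP12 binds, its summed level was lower in each line than in wild type. The ratio of summed CP12 FPKM to the sum of GAPA1, GAPA2, GAPB and PRK was 0.605, 0.555 and 0.605 in lines 1 to 3, against 0.690, 0.703 and 0.808 in wild-type replicates 1 to 3. Every line lay below every wild-type sample. A ratio within a sample does not change when all its values are multiplied by 1 factor. This ratio was chosen after the values were seen, so it is given with no test.

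The carbonic anhydrase genes, whose enzymes interconvert CO2 and bicarbonate in the leaf, rose under every scaling. CA1 (AT3G01500) had 1334, 1375 and 1351 FPKM in the lines, against 770.5, 781 and 784 FPKM in wild type, with a log2 fold change at 0.80 (SE 0.033, limma adjusted p = 2.1e-07). CA2 (AT5G14740) had 850.4, 875 and 865 FPKM in the lines, against 528, 506 and 520.1 FPKM in wild type, with a log2 fold change at 0.74 (SE 0.036, limma adjusted p = 4.9e-07). Together they summed to 2217 ± 32.6 FPKM in the lines and 1297 ± 8.52 FPKM in wild type (SD, n = 3 each), 1.71 times higher in the lines.

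Photorespiration had 10 of 11 tested genes called higher and 0 lower on the deposited values, with a median log2 fold change of 0.54. Over all tested genes 25.0% were called higher, and 62.7% of those at 100 FPKM or more. The pathway opens in the chloroplast with phosphoglycolate phosphatase. Its gene PGLP1 (AT5G36700) was listed at 0.831, 0.881 and 1.07 FPKM in the lines, against 1.16, 0.731 and 0.483 FPKM in wild type, and the groups overlapped. A copy of PGLP1 on the same chromosome, AT5G36790, has an identical coding sequence of 1089 bases and was at 1.96, 1.87 and 1.89 FPKM in the lines, against 2.17, 0.718 and 1.77 FPKM in wild type. The counting of reads shared by these copies is not given here, so the level of the phosphatase is uncertain.

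In the peroxisome, where glycolate is oxidised and transaminated to glycine and hydroxypyruvate is later reduced, all 5 genes were called higher, with a median log2 fold change of 0.58. GOX1 (AT3G14420), a glycolate oxidase, had 895, 917 and 974 FPKM in the lines, against 543, 542 and 504 FPKM in wild type. GGT1 (AT1G23310), the glutamate:glyoxylate aminotransferase, had 1561, 1511 and 1528 FPKM in the lines, against 998, 986 and 881 FPKM in wild type. In both genes the lines stood well clear of wild type, with log2 fold changes of 0.81 (SE 0.047, limma adjusted p = 1.4e-06) and 0.68 (SE 0.050, limma adjusted p = 6.2e-06) that stayed called under every scaling. HPR1 (AT1G68010), the hydroxypyruvate reductase, did so too, with 531 ± 8.39 FPKM in the lines and 354 ± 17.6 FPKM in wild type (SD, n = 3 each).

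The other peroxisomal genes differed less. AGT1 (AT2G13360), the serine:glyoxylate aminotransferase, had 1406, 1388 and 1363 FPKM in the lines, against 977, 964 and 1007 FPKM in wild type. GOX2 (AT3G14415), the second glycolate oxidase gene, had 428, 416 and 433 FPKM in the lines, against 315, 326 and 296 FPKM in wild type. Neither overlapped between the groups. AGT1 was higher by 0.50 in log2 units (SE 0.035, limma adjusted p = 4.4e-06) and lost its call after loess only (0.02), while GOX2, at 0.45 (SE 0.047, limma adjusted p = 6.5e-05), was not called after TPM rescaling, quantile normalization or loess.

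In the mitochondrion, the glycine decarboxylase complex (P, T, H and L proteins) and serine hydroxymethyltransferase turn glycine into serine and release CO2 and ammonia. Here 4 of 5 genes were called higher, with a median log2 fold change of 0.54. SHM1 (AT4G37930), the hydroxymethyltransferase, had 1106, 1084 and 1081 FPKM in the lines, against 671, 645 and 631 FPKM in wild type. GLDP1 (AT4G33010), a P protein gene, had 248, 256 and 266 FPKM in the lines, against 170.3, 170.5 and 149.6 FPKM in wild type. Both were clear of wild type and stayed called under every scaling, with log2 fold changes of 0.75 (SE 0.037, limma adjusted p = 5.4e-07) and 0.65 (SE 0.061, limma adjusted p = 3.1e-05). GLDP1 overlaps AT4G33000 on the opposite strand, a gene whose mean was 20.7% of that of GLDP1, and no source used here says whether strand was used in counting. Neighbours that overlap PRK and GOX1 on the opposite strand had means of 9.87% and 6.70% of those genes.

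The second P protein gene, GLDP2 (AT2G26080), had 77.1, 80.8 and 78.3 FPKM in the lines, against 74.0, 70.9 and 64.7 FPKM in wild type. The lines lay just above wild type, and the log2 fold change of GLDP2, 0.17 (SE 0.064, limma adjusted p = 0.057), was not called as deposited, was called without wild-type replicate 1 (0.21, limma adjusted p = 0.040), and was called lower after TPM rescaling (-0.20). GLDH1 (AT2G35370), an H protein gene, had 572, 527 and 587 FPKM in the lines, against 432, 434 and 461 FPKM in wild type. The groups of GLDH1 did not overlap, and its log2 fold change (0.34, SE 0.051, limma adjusted p = 0.00058) was -0.04 after TPM rescaling, -0.02 after quantile normalization and -0.06 after loess, none of them called. The T protein gene GLDT (AT1G11860) averaged 455 ± 1.18 FPKM in the lines and 314 ± 19.2 FPKM in wild type (SD, n = 3 each), and its log2 fold change of 0.54 was no longer called after loess (limma adjusted p = 0.051). GLYK (AT1G80380), the glycerate kinase that returns the carbon to the Calvin cycle in the chloroplast, averaged 195 ± 6.85 FPKM in the lines and 136 ± 5.43 FPKM in wild type, with a log2 fold change of 0.51 (limma adjusted p = 4.5e-05) that stayed called under every scaling.

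On the deposited values, carbon fixation and photorespiration moved by nearly the same factor in sum. The 19 carbon fixation genes summed to 37041 ± 480.1 FPKM in the lines and 24805 ± 337 FPKM in wild type (SD, n = 3 each), a ratio of 1.49. The 12 photorespiration genes summed to 7442 ± 68.2 FPKM in the lines and 4909 ± 134 FPKM in wild type, a ratio of 1.52. The ratio of the photorespiration sum to the carbon fixation sum was 0.203, 0.201 and 0.199 in lines 1 to 3, against 0.200, 0.200 and 0.194 in wild-type replicates 1 to 3. These ratios overlapped between the groups, with means of 0.201 in the lines and 0.198 in wild type. The difference of the means was 0.00301, and 0.000909 without wild-type replicate 3, the sample with the lowest ratio. After quantile normalization the difference was larger, as given in the closing section. The median log2 fold change of carbon fixation genes was 0.59 and that of photorespiration genes 0.54 as deposited, while after quantile normalization the medians were 0.09 and 0.19. Without wild-type replicate 1 they were 0.52 and 0.58 on the deposited scale, so the order of the pathways depended on the scaling and on that sample.

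The small subunit genes carry most of the carbon fixation sum. With them left out, the ratio was 0.491, 0.490 and 0.485 in the lines, against 0.473, 0.468 and 0.468 in wild type. Every line lay above every wild-type sample. The remaining carbon fixation sum still holds the CP12 genes, so this ratio does not compare the enzymes alone. The CP12 sum was 1.14 times higher in the lines, against 1.46 for the remaining sum and 1.52 for photorespiration. With the CP12 sums also taken out of each sample, the ratios overlapped between the groups. The separation was therefore seen only with the CP12 genes in the carbon fixation sum. Within photorespiration, the ratio of the peroxisomal sum to the mitochondrial sum was 1.96, 1.98 and 1.96 in the lines, against 1.91, 1.94 and 1.89 in wild type, which did not overlap either. These ratios were chosen after the values were seen and are given with no test.

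**Figure D4:**
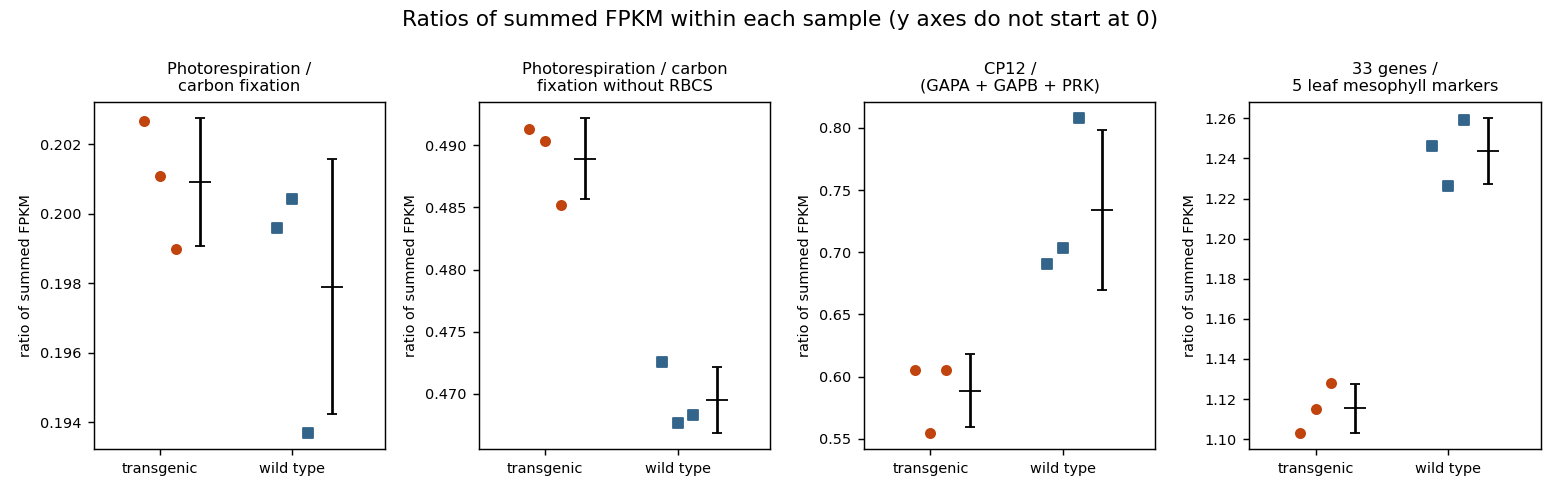
Ratios of summed FPKM within each sample (points: transgenic lines left, wild type right; bars: mean and SD, n = 3; y axes do not start at 0). Photorespiration over carbon fixation overlaps between the groups (means 0.201 in the lines and 0.198 in wild type), and the other 3 ratios do not. The carbon fixation sum without RBCS still holds the CP12 genes, and its ratio overlaps once they are taken out.

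Several enzymes are encoded by paired genes, and the members of a pair did not always keep their proportion. For 9 shares of a gene in its family, computed within a sample, a two-sided exact permutation test of 3 against 3 samples can give no p below 0.1, and the lowest value after adjustment over the 9 was 0.15, so no share could pass 0.05. GAPA1 made up 59.1%, 59.4% and 59.6% of GAPA in the lines, against 68.8%, 68.2% and 65.3% in wild type, a difference of -8.03 percentage points (exact p = 0.1). GLDP1 made up 76.2%, 76.0% and 77.2% of the P protein sum in the lines, against 69.7%, 70.6% and 69.8% in wild type (6.44 points, exact p = 0.1). GOX1 made up 67.7%, 68.8% and 69.2% of the GOX1 and GOX2 sum in the lines, against 63.3%, 62.4% and 63.0% in wild type (5.67 points, exact p = 0.1). In these 3 families the lines did not overlap wild type, with GAPA1 below it and the other genes above.

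Smaller shifts without overlap were seen for CP12-1 (1.57 points), FBA1 (1.39 points) and CA1 (1.01 points), all with an exact p of 0.1. The CA1 difference was 0.660 points without wild-type replicate 1. The shares of the small subunit genes overlapped between the groups. RBCS1A made up 65.3%, 63.8% and 63.9% of their sum in the lines, against 66.4%, 64.8% and 64.3% in wild type (exact p = 0.4). RBCS1B (exact p = 0.3) and RBCS2B (exact p = 0.7) overlapped as well.

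**Figure D5:**
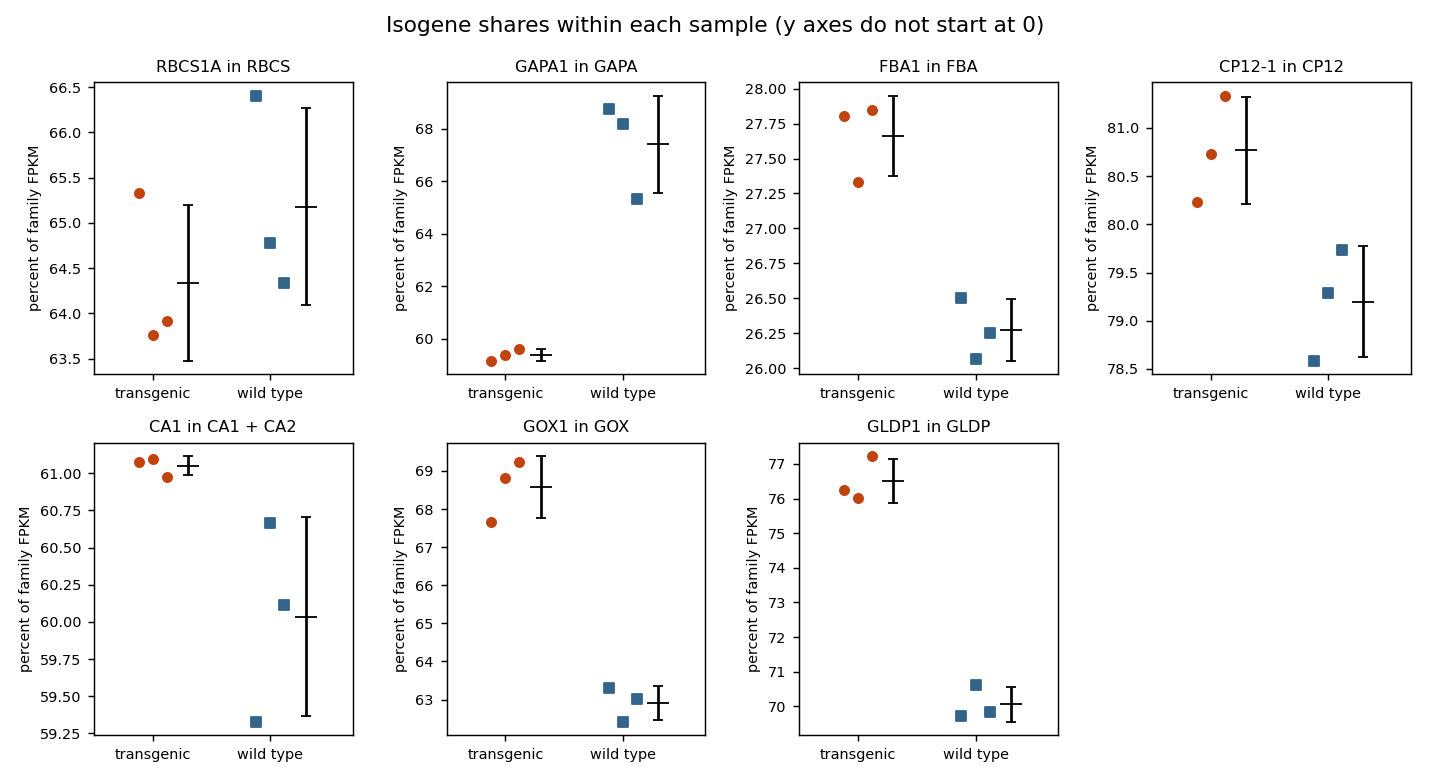
Percent of the family FPKM held by 1 gene within each sample (points: transgenic lines left, wild type right; bars: mean and SD, n = 3; y axes do not start at 0). GAPA1 lies lower in the lines (59.1% to 59.6%, against 65.3% to 68.8% in wild type), GLDP1 and GOX1 lie higher, and RBCS1A overlaps.

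These shares rest on reads that can be told apart between near copies, so the coding sequences of the pairs were aligned. GAPA1 and GAPA2 were identical at 85.8% of aligned coding bases with a longest identical run of 29 bases, GLDP1 and GLDP2 at 85.6% with a run of 54, and GOX1 and GOX2 at 92.4% with a run of 68. RBCS1B and RBCS2B were closest, at 97.3% with a run of 89 bases, and RBCS1A was identical to RBCS1B at 90.4% and to RBCS2B at 90.6%. No source used here says how reads that match both copies were counted, so the division between RBCS1B and RBCS2B is uncertain. The 60-base coding windows with the most differences are shown for the 3 pairs whose shares moved most and for the closest pair. Capitals mark the bases that differ within a pair.
GAPA1: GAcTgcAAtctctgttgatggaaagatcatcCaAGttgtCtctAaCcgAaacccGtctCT
GAPA2: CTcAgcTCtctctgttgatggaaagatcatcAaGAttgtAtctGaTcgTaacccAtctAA
GLDP1: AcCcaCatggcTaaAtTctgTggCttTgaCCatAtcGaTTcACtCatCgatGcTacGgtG
GLDP2: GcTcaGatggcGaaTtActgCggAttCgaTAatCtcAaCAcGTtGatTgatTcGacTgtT
GOX1: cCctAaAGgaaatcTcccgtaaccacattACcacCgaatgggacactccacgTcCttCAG
GOX2: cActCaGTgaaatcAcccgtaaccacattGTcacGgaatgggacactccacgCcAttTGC
RBCS1B: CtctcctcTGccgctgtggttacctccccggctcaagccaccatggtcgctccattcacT
RBCS2B: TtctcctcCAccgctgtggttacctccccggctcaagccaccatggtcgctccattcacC

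The windows hold 15 differences for GAPA, 23 for GLDP and 13 for GOX, and 4 for RBCS1B and RBCS2B. In TAIR10.1 they lie at chr3:9795859-9795918 (plus strand) for GAPA1 and chr1:4393558-4393617 (minus) for GAPA2. For the P protein they lie at chr4:15930818-15930877 (minus) for GLDP1 and chr2:11113439-11113498 (minus) for GLDP2. The GOX windows lie at chr3:4823829-4823888 (plus) for GOX1 and chr3:4820678-4820737 (plus) for GOX2, in genes that neighbour each other. RBCS1B and RBCS2B are neighbours too, with windows at chr5:15385081-15385140 (minus) for RBCS1B and chr5:15381904-15381963 (minus) for RBCS2B.

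Other genes of these pathways moved in both directions. Of 45 tested genes in lists of assembly factors, isoforms, transporters and nitrogen reassimilation, 30 rose, 2 fell and 13 were not called on the deposited values, with a median log2 fold change of 0.38, against 25.0% higher and 15.7% lower among all tested genes and 62.7% and 11.5% among those at 100 FPKM or more. TPM rescaling gave 12 higher and 9 lower. CP12-3 and GLDH2, also listed, were not analysed here. Under all 5 scalings 12 of the 45 (26.7%) were called higher and 2 (4.44%) lower. The shares were 10.9% and 13.4% of all tested genes, and 31.7% and 11.5% of those at 100 FPKM or more.

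RBCL, the chloroplast gene of the Rubisco large subunit, had 44.1, 14.9 and 48.3 FPKM in the lines, against 10.4, 10.1 and 8.99 FPKM in wild type. Line 2 stood close to wild type and apart from the other lines. The log2 fold change (1.60, SE 0.36, limma adjusted p = 0.0063) ranged from 1.31 to 2.13 when each sample was left out in turn, called each time, but RBCL was not called when no filter on low values was used (limma adjusted p = 0.055). Chloroplast transcripts mostly lack a poly(A) tail, so these libraries hold a selected part of them.

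Among factors that fold and assemble Rubisco, 8 of 9 were called higher and 0 lower on the deposited values, and 9 had an unadjusted p under 0.05 in limma, but TPM rescaling gave 1 higher and 1 lower. The largest differences were those of CBBY, a phosphatase of inhibitory sugar phosphates, at 133 ± 4.67 FPKM in the lines and 90.1 ± 4.68 FPKM in wild type (SD, n = 3 each), of the chaperone gene RBCX2 at 77.1 ± 7.12 FPKM in the lines and 52.6 ± 4.58 FPKM in wild type, and of BSD2 at 221 ± 9.85 FPKM in the lines and 153 ± 13.3 FPKM in wild type. CBBY, with a log2 fold change of 0.56, was the gene of this list called higher under every scaling, a share (11.1%) close to the 10.9% of all tested genes. RBCX2 and BSD2, at 0.54 and 0.53, were not called after TPM rescaling, and BSD2 was also not called after quantile normalization.

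Of 11 tested isoforms of Calvin cycle enzymes and genes of triose phosphate export, 7 rose, 1 fell and 3 were not called. RPI1, a ribose phosphate isomerase, had 27.9, 28.2 and 21.6 FPKM in the lines, against 14.4, 7.51 and 15.4 FPKM in wild type. Its log2 fold change was 1.05 (limma adjusted p = 0.0055), and RPI4, another isomerase gene, and CTIMC, the cytosolic triose phosphate isomerase, followed at 0.61 and 0.59. GAPC2, a glycolytic dehydrogenase of the cytosol, fell to 518, 526 and 520.2 FPKM in the lines, against 607, 570.2 and 587 FPKM in wild type. All 4 genes were called in the same direction under every scaling, but GAPC2 was not called without the mean-variance trend (limma adjusted p = 0.077). FBA3, the third plastid aldolase gene, was not called as deposited, at 91.6 ± 1.35 FPKM in the lines and 95.3 ± 2.64 FPKM in wild type, a log2 fold change of -0.06 (limma adjusted p = 0.41), and was called lower after TPM rescaling (-0.43), quantile normalization (-0.32) and loess (-0.32).

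Of 13 tested photorespiratory isoforms, 7 rose and 6 were not called. CAT2, the leaf peroxisomal catalase that breaks down the hydrogen peroxide made by glycolate oxidase, had 213, 219.7 and 212 FPKM in the lines, against 96.9, 101 and 89.0 FPKM in wild type. No line approached wild type, and the log2 fold change (1.16, SE 0.056, limma adjusted p = 4.7e-07) was larger than that of any of the 32 tested loci. HPR3, a hydroxypyruvate reductase outside the peroxisome, and the aminotransferase gene GGT2 were lower in level, with log2 fold changes of 0.86 and 0.67. CAT2, HPR3 and GGT2 were called under every scaling. GLDH3, a close paralog of GLDH1 with 88.2% identical coding bases, averaged 640.2 ± 29.1 FPKM in the lines and 486 ± 5.35 FPKM in wild type (SD, n = 3 each). Like GLDH1, it was called on the deposited values (0.40), and it was near 0 after TPM rescaling (0.02), quantile normalization (-0.01) and loess (-0.01).

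Transport and ammonia reassimilation had 6 of 7 genes called higher and 0 lower, with a median log2 fold change of 0.63. PLGG1, the plastid glycolate and glycerate transporter, averaged 164 ± 7.25 FPKM in the lines and 95.9 ± 7.45 FPKM in wild type (SD, n = 3 each). GLU1, the leaf ferredoxin-dependent glutamate synthase, averaged 158 ± 3.51 FPKM in the lines and 98.8 ± 9.09 FPKM in wild type, and GLN2, the plastid glutamine synthetase, 983 ± 13.1 FPKM in the lines and 621 ± 22.3 FPKM in wild type. These log2 fold changes of 0.77, 0.67 and 0.66 stayed called under every scaling.

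The other carbonic anhydrase genes did not move with CA1 and CA2 as a group: of 4 tested, 1 rose, 1 fell and 2 were not called. CA4 averaged 177 ± 4.20 FPKM in the lines and 139 ± 4.40 FPKM in wild type (SD, n = 3 each), a log2 fold change of 0.35 as deposited. It was -0.03 after TPM rescaling, 0.03 after quantile normalization and 0.04 after loess, none of them called. CA6 fell to 17.4, 14.3 and 14.3 FPKM in the lines, against 25.5, 29.4 and 27.1 FPKM in wild type, a log2 fold change at -0.80 (SE 0.10, limma adjusted p = 0.00020) that stayed called under every scaling.

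Marker genes of leaf cell types also differed between the groups. On the deposited values all 5 mesophyll markers, among them LHCB2.1 and LHCB3 of the light-harvesting complex, rose. Their sum was 41468 to 42250 FPKM in the lines, against 24351 to 25298 FPKM in wild type. All 5 stayed called after TPM rescaling. LHCB3, PSAD1 and LHCB1.2 were not called after quantile normalization, and PSAD1 and LHCB1.2 were not called after loess. The summed FPKM of the 33 loci over that of the 5 mesophyll markers was 1.103, 1.115 and 1.128 in the lines, against 1.25, 1.23 and 1.26 in wild type. The summed level of the 33 loci relative to these markers was therefore lower in every line than in any wild-type sample. Not every gene followed the sum: the marker sum was 1.68 times higher in the lines, and RCA was 1.81, GOX1 1.75, CA1 1.74 and GAPA2 1.73 times higher. This ratio, too, was chosen after the values were seen.

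On the deposited values 2 of 4 vasculature markers rose, SUC2 and AHA3. The 4 summed to 184 to 191 FPKM in the lines, against 113 to 119 FPKM in wild type, and SUC2 and AHA3 carried most of it. SULTR2.2 went the other way, with all lines below wild type (log2 fold change -0.50, limma adjusted p = 0.052). It was called lower after TPM rescaling and with median-of-ratios factors. APL overlapped between the groups and was not called (0.05). Epidermis markers fell in 3 of 4, with sums of 279 to 291 FPKM in the lines, against 424 to 459.7 FPKM in wild type. Markers of dividing and meristem cells fell in 3 of 4, STM, CDKB2.1 and KN. The sums of the 4 overlapped, at 31.0 to 67.2 FPKM in the lines, against 63.6 to 104 FPKM in wild type. CYCB1.1, which was not called, scattered widely within these sums. It had 20.2, 3.71 and 38.1 FPKM in the lines, against 49.4, 29.1 and 4.99 FPKM in wild type. The 4 guard cell markers summed to 15.1 to 18.7 FPKM in the lines, against 13.9 to 16.3 FPKM in wild type. No tested one was called as deposited. KAT1 was called higher after quantile normalization and loess, and FAMA lower after TPM rescaling. SLAC1 averaged under 1 FPKM and was not tested, with means of 0.579 FPKM in the lines and 1.06 FPKM in wild type.

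Markers of other organs were low. The 5 flower markers summed to 4.19 to 11.1 FPKM in the lines, against 9.62 to 11.2 FPKM in wild type. No tested one was called as deposited, and AG, averaging under 1 FPKM, was not tested. The 3 seed markers summed to at most 0.410 FPKM in any sample. Of the 5 root markers with values, RSL4 was at 0 in all samples, IRT1, RHD6 and COBL9 were at or near 0, and PYK10 fell to 70.9 ± 3.43 FPKM in the lines, against 112 ± 3.66 FPKM in wild type (SD, n = 3 each). The part of these marker differences in the results for the pathway genes was not tested.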

How the data were processed

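Leaf mRNA was measured in 3 transgenic samples and 3 wild-type samples. The authors deposited FPKM, already scaled for transcript length and library size. The submitters' processing notes, per the labels, list TopHat2 and DESeq beside the TAIR10 build, giving neither versions nor roles. Fragment type, strand use and the handling of shared reads are not given in the sources used. Low values did not fall on clear steps (at most 7.46% of low genes in the commonest bin of log2 ratios), so whole reads were not recovered, the depth is unknown and no count test was run.

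From the deposited FPKM, log2(FPKM + 1) was fitted in limma 3.58.1 (R 4.3.3) with a mean-variance trend and no covariate, over the 17093 genes that averaged 1 FPKM or more. P-values were adjusted by Benjamini-Hochberg over all of these, with 0.05 as the threshold. The pseudocount understates fold changes of low genes. SE are limma's. The fitting was tested on simulated data.

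Alternatives were a pseudocount of 0.1, no filter, a mean of at least 5 FPKM, 4 other scalings, no trend, a replicate block, paralogs summed, and each sample left out. Loci were matched to TAIR10.1 of RefSeq for sequences. Values per sample are given for the RBCS, CP12 and carbonic anhydrase genes, RCA, the 4 highest and 4 lowest fold changes in each pathway, and genes that turn sign with a scaling. Of the other lists, up to 3 called genes with the largest change, RBCL and direct paralogs are named. RPI3, PGLP1 and the calls shared by all 5 scalings were added after the values were seen. The members and lists were chosen with earlier results of these data known.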

Additional observations from a re-analysis of the deposited data

How the results depend on the processing

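The scaling changed the results most. TPM rescaling called 1907 of all tested genes higher and 8363 lower, against 4273 and 2676 as deposited. Of the 32 genes it called 3 lower, namely CP12-1, CP12-2 and GLDP2. In carbon fixation it called 11 higher and 2 lower, and in photorespiration 1 lower. Quantile normalization called 18 of the 32 genes higher and 2 lower (carbon fixation 8 and 2). Loess called 16 and 2 (carbon fixation 8 and 2, photorespiration 6 higher). Those called lower were CP12-1 and CP12-2 each time, which encode regulators and not enzymes. The log2 fold change turned negative for RBCS1A after loess (-0.061) and for PGK2 after TPM rescaling (-0.071). After TPM rescaling, quantile normalization and loess in that order, it was -0.088, -0.14 and -0.19 for GAPA1, -0.052, -0.031 and -0.062 for TKL1, -0.16, -0.14 and -0.29 for CP12-1, -0.30, -0.31 and -0.32 for CP12-2, -0.20, -0.074 and -0.068 for GLDP2, and -0.036, -0.019 and -0.058 for GLDH1. The difference in photorespiration over carbon fixation was 0.0172 after quantile normalization and 0.000909 to 0.00427 when each sample was left out. The difference in the RBCS1B share was -0.549 points after quantile normalization. These normalizations change each gene by its rank or level, so they can move a ratio within a sample. Leaving out each sample gave 30 to 31 of the 32 genes called higher, 18 to 18 in carbon fixation and 10 to 11 in photorespiration. Of all genes, 3786 to 3945 were then called higher and 2038 to 2492 lower. The replicate numbers did not pair the samples: deviations of same-numbered samples correlated at -0.035, 0.049 and -0.023. A fit with the number as a replicate block called 30 of the 32 genes higher, and 4155 of all genes higher and 2551 lower. The pseudocount of 0.1, the mean of at least 5 FPKM and median-of-ratios factors changed no call of the 32 genes. The share of PGK2 was not computed because PGK1 was not analysed here. With no read counts, precision rests on 3 samples per group.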
